A study of Zea mays with 2 samples.

Results

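Among the listed binding sites of Opaque2 (O2), a transcription factor active in the endosperm of maize kernels, those with the least signal are described here. They were chosen by summit pileup: all peaks on chromosomes 1 to 10 with a pileup under 20, in a list of O2 peaks that the authors marked release 26 (the later list). Pileup is the number of overlapping sequenced fragments at the summit of a peak. The rule gave 600 weak sites of 2567 listed peaks. It gave 23.5% (Wilson 95% interval 21.9 to 25.2%) of the 2555 peaks on chromosomes 1 to 10. The other chromosomal peaks were divided into 1601 medium sites, with a pileup of 20 to 79, and 354 strong sites, with a pileup of 80 or more. The material was wild-type endosperm at 15 days after pollination, and both groups share this genotype, tissue and stage. Chromatin immunoprecipitation with sequencing (ChIP-seq) gave 1 library with a rabbit antibody against full-length O2, made by the submitters, and 1 control library with non-specific rabbit IgG. With 1 library per antibody, neither a peak nor its score has a replicate check, and no test compares the libraries. Total read depth is unknown.

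The endosperm stores the starch and protein of the kernel, and O2 is a regulator of this filling. O2 belongs to the basic leucine zipper family, whose members bind DNA as dimers, usually at short motifs with an ACGT core. It is known above all for switching on genes of zeins, the main storage proteins. The signal of a ChIP-seq peak is an average over all nuclei of the sample, so binding in fewer cells and shorter or rarer binding in each cell cannot be told apart. A low pileup is therefore a low count of fragments and no direct measure of occupancy. The question was whether weak sites sit beside strong ones, as shoulders or satellites would, or stand alone. No genome of the list's release was used here, so sites are given by position and no motif, sequence or gene is assigned to them.

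Weak sites were short, low peaks over a low background. Their median pileup was 16 (quartiles 14 and 18, lowest 8). The median background, an IgG-based value recovered from the deposited fold, was 2.07 in units of pileup. Their fold enrichment had a median of 5.07 (quartiles 4.25 and 6.09, highest 8.52). Medium sites had a median pileup of 32, a median background of 2.94 and a median fold of 8.29. Strong sites are strong by pileup alone. Their median fold was 24.4, and 350 of 354 had a fold of at least 5. The lowest was 1.49, under the lowest weak fold of 2.62, and their background reached 147.8. A fold of at least 5 was listed for 323 of the 600 weak sites, against 82.2% of all chromosomal peaks, and a -log10 q of at least 10 for 43 weak sites, against 66.8%. These scores follow from the pileup that chose the sites. Background is not independent of the rule either, because a low pileup passes the caller's threshold only over a low background. All these values are given as a description. Pileup above background summed over the weak sites was 7.84% of that of all chromosomal peaks.

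The median length of a weak site was 292 bp (quartiles 269 and 330 bp), against 385 bp for medium and 510 bp for strong sites. The shortest length in the list, 265 bp, was that of 125 weak sites (20.8%), 30 medium sites and no strong site. A length of at least 400 bp was reached by 42 weak sites (7.00%) and by 701 medium sites (43.8%). Length is set in part by summit height, because the caller extends an interval as far as the signal stays over its threshold, so it is no independent property of weak sites.

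The limit of 20 cut through the densest part of the pileup distribution. There were 92 sites at a pileup of 18, 70 at 19, 90 at 20 and 94 at 21. Sites at 19 had a median length of 304 bp, a median fold of 5.57 and a median -log10 q of 7.61. Just outside, at 20, the medians were 304 bp, 5.84 and 8.49. Their median distance to a strong site was 2408 kb at a pileup of 19 and 2014 kb at 20. No gap in the distribution sets weak sites apart as a class.

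The lowest pileup of the list, 8, belonged to a site of chromosome 9 spanning 24559580 to 24560008. It had a fold of 3.52 and a -log10 q of 1.40, and its nearest strong site was 14839 kb away. A pileup of 9 was listed for 10 sites, with folds of 3.38 to 4.26 and strong sites 80.7 to 8985 kb away. The 4 with the lowest -log10 q, 1.38, are named here, and the order by q also makes their folds the lowest of the 10. They lay on chromosome 3 at 190708405 to 190708669, chromosome 5 at 103190620 to 103190901, chromosome 6 at 1970253 to 1970574 and chromosome 10 at 142598279 to 142598607. All 4 had a fold of 3.38 over a background of 1.96, and their nearest strong sites were 308.0, 738.7, 1104 and 688.8 kb away. The faintest calls lay at very different distances from sites of high pileup.

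The highest folds among weak sites stood over a low background, which is fixed by the way fold is computed once pileup is capped at 19. Pileup was 19, background was 1.35 (the list minimum) and fold was 8.52 at 4 peaks, on chromosome 3 at 154799283 to 154799600, chromosome 6 at 1485920 to 1486297, chromosome 8 at 27207180 to 27207482 and chromosome 10 at 57715504 to 57715851. The fifth by the rule was the chromosome 3 peak spanning 111071822 to 111072204, whose fold of 8.16 was also that of 1 further site on chromosome 5. The nearest strong sites of the 5 were between 619.3 and 8394 kb away. The minimum background was found at 84 weak sites (14.0%), at 99 medium sites (6.18%) and at 4 strong sites (1.13%). A single value shared by so many peaks is not read here as IgG signal measured at each. These counts too are a description, because pileup and background of listed peaks are linked through the caller's threshold.

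Weak sites were found on all 10 chromosomes, from 44 on chromosome 6 to 79 on chromosome 1. Their density, taken over the stretch between each chromosome's outermost summits (its span), was 0.293 per Mb (exact Poisson 95% interval 0.270 to 0.317). It was lowest on chromosome 4, at 0.232 per Mb (56 sites, 0.175 to 0.301), and highest on chromosome 9, at 0.361 (56 sites, 0.272 to 0.468). Chromosome 10 came next at 0.345 (51 sites, 0.257 to 0.453), followed by chromosome 7 at 0.330 (58 sites) and chromosome 2 at 0.321 (76 sites). The intervals of all chromosomes overlap. Across chromosomes the density was 0.298 ± 0.0420 per Mb (SD, n = 10).

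The weak share of a chromosome's sites was 32.6% on chromosome 9 (56 of 172 sites, Wilson 95% interval 26.003 to 39.9%), 27.6% on chromosome 10 (51 of 185) and lower on the rest, with 58 of 223 sites on chromosome 7. The lowest shares were 19.3% on chromosome 4 (56 of 290 sites, 15.2 to 24.2%), 19.7% on chromosome 5 (15.5 to 24.7%) and 20.7% on chromosome 1 (16.9 to 25.02%). The interval of chromosome 9 did not overlap these 3. Chromosomes 9 and 10 also had the lowest densities of strong sites, 0.116 and 0.115 per Mb, against 0.220 on chromosome 3 and 0.212 on chromosome 5. The density of medium sites was lowest on chromosome 9 too, at 0.631 per Mb. On chromosome 10 it was 0.791, against a mean of 0.772 over chromosomes. Chromosomes 4 and 9 were picked as the extremes of 10, and the difference between chromosomes was not tested. The plot of density and share by chromosome gives the interval of each. All intervals of shares and densities cover counting error only.

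**Figure D1:**
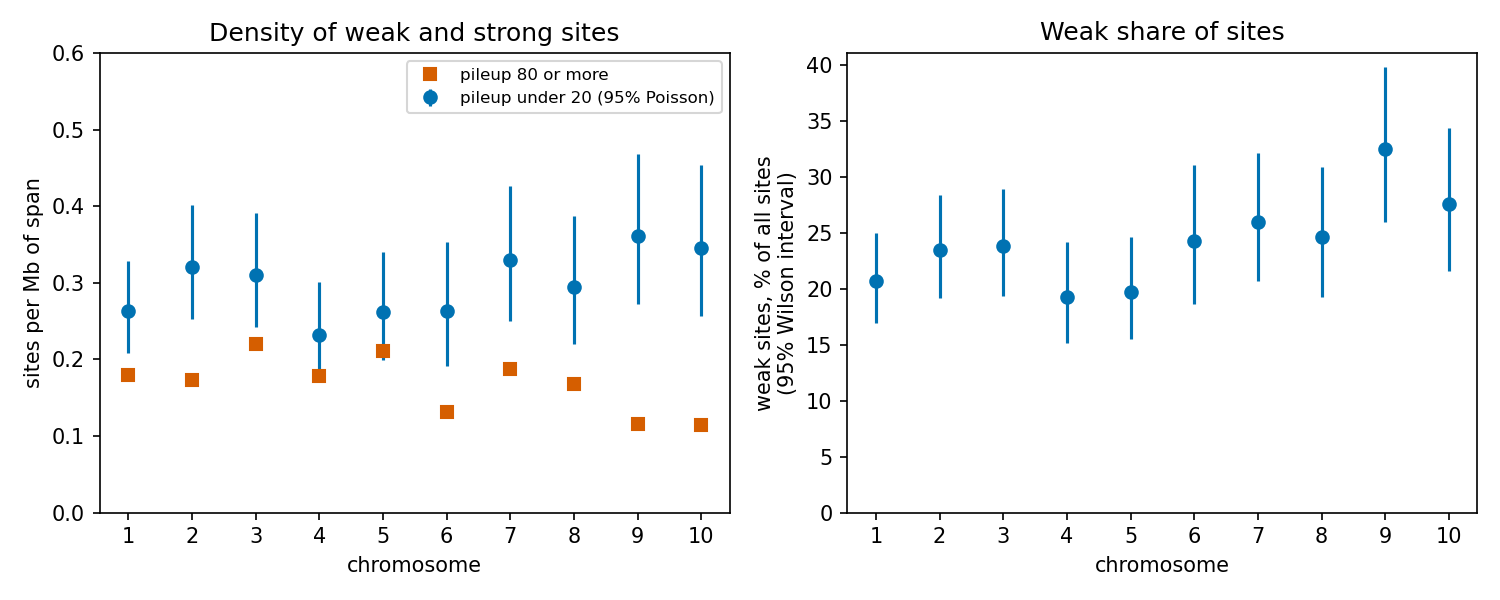
Left, sites per Mb of span (y axis) on each chromosome (x axis) for weak sites (circles, exact Poisson 95% intervals) and strong sites (squares). Right, weak sites as a percentage of all O2 sites of the chromosome, with Wilson 95% intervals. Chromosome 9 has the highest weak share, 32.6%, and chromosome 4 the lowest, 19.3%.

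Weak sites were about as far from strong sites as medium sites were, and no difference between them was detected. The median weak site lay 2095 kb from the nearest strong summit (quartiles 856.0 and 4770 kb), and the median medium site lay 2049 kb from it (quartiles 798.4 and 4281 kb). A strong site within 50 kb was found for 9 of 600 weak sites (1.50%, Wilson 95% interval 0.791 to 2.83%) and for 20 of 1601 medium sites (1.25%, 0.810 to 1.92%). Within 500 kb the numbers were 99 weak sites (16.5%, 13.7 to 19.7%) and 269 medium sites (16.8%, 15.1 to 18.7%). No strong site within 5 Mb was found for 142 weak sites (23.7%) and 324 medium sites (20.2%), and none within 10 Mb for 39 (6.50%) and 99 (6.18%).

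The same comparison was made within each chromosome, where weak and medium sites face the same set of strong ones. A two-sided exact sign-flip permutation test over the 10 chromosomes was used, with Benjamini-Hochberg adjustment over the 7 differences between weak and medium sites. Chromosomes of 1 library are paired units and not replicates of the experiment. The ratio of the weak to the medium median distance was 0.990 (95% interval 0.860 to 1.12), with weak sites farther from strong ones on 6 chromosomes and nearer on 4 (exact p = 0.861, adjusted p = 0.973). The share with a strong site within 50 kb was 1.58% ± 1.89 (SD, n = 10 chromosomes) for weak and 1.07% ± 0.800 for medium sites, a difference of 0.505 percentage points (95% interval -1.30 to 2.26, exact p = 0.508, adjusted p = 0.973). Within 500 kb the shares were 16.1% ± 4.05 and 16.1% ± 4.50, a difference of 0.0407 points (95% interval -2.29 to 2.33, exact p = 0.973, adjusted p = 0.973). These differences were smaller than the spread between chromosomes. The weak share within 50 kb rests on 9 sites. The upper end of its interval, 2.26 points, is larger than the medium share of 1.07% itself. An excess of weak sites up to that size therefore stays within the interval.

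**Figure D2:**
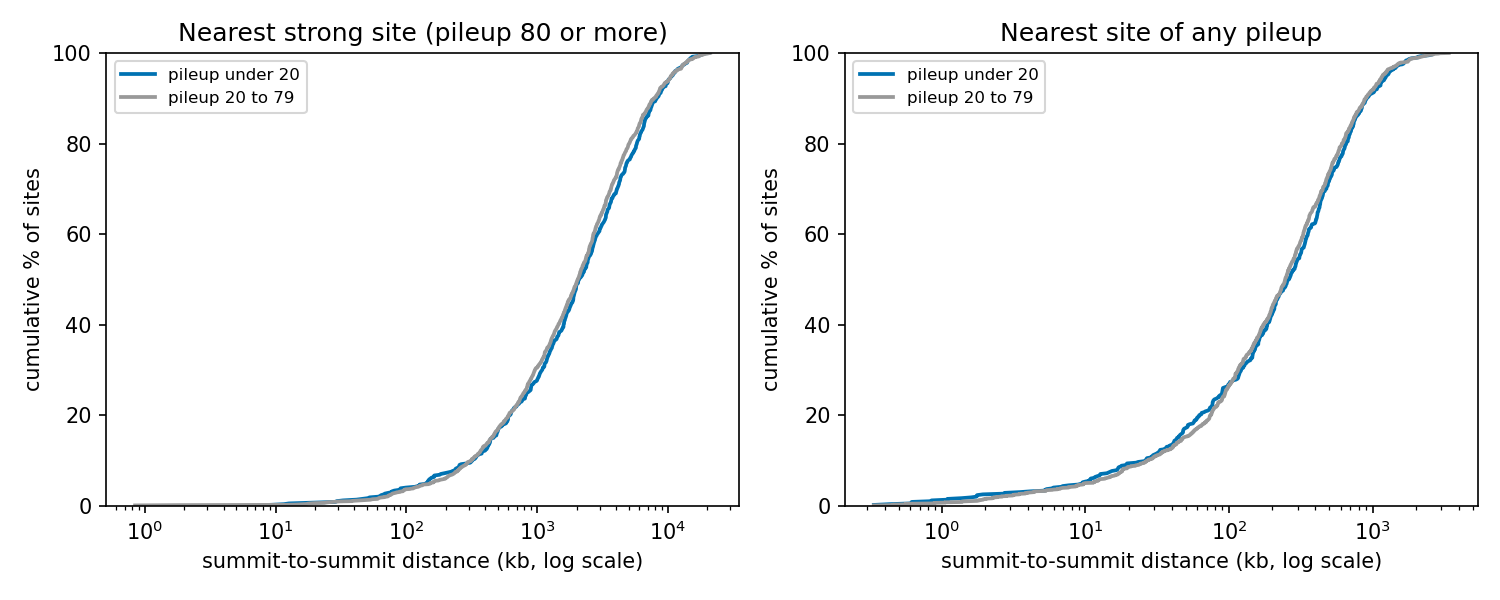
Cumulative percentage of sites (y axis) by summit-to-summit distance in kb on a log scale (x axis), to the nearest strong site (left) and to the nearest site of any pileup (right), for weak (blue) and medium (grey) sites. The curves nearly coincide, with medians of 2095 and 2049 kb on the left and 261.9 and 246.0 kb on the right.

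Only 1 weak site had a strong summit within 10 kb. It lay on chromosome 3 at 217638690 to 217638996, where pileup was 10 and fold was 3.30, and the strong peak at 217647586 to 217648093 was 8877 bp away with a pileup of 94. The next on chromosome 3, at 106367493 to 106367757 (pileup 13, fold 4.52), was 11584 bp from a peak of pileup 92 at 106378963 to 106379447. On chromosome 6, a weak site of 613 bp at 153966497 to 153967109 reached a pileup of 18 and a fold of 8.09. Its strong neighbour, 12638 bp away at 153979262 to 153979828, reached a pileup of 108 and a fold of 46.4. The other 2 of the 5 nearest were on chromosome 4 at 96987394 to 96987681 (pileup 14, 19378 bp from a peak of pileup 113) and on chromosome 7 at 164706065 to 164706421 (pileup 19, 28688 bp from a peak of pileup 83). Among medium sites, 2 had a strong summit within 10 kb, at 842 bp on chromosome 2 and at 1796 bp on chromosome 4. The caller joins touching signal into 1 interval and listed more than 1 summit in only 3 intervals, so a weak rise right beside a strong summit may not be a site of its own in this list.

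The most remote weak site was on chromosome 6 at 89284666 to 89284955 (pileup 18, fold 4.83), and the nearest strong summit was 20439 kb away. A medium site lay much nearer to it, at 79.3 kb. The other 4 were all on chromosome 9, at 108780524 to 108780828 (pileup 15), 20142674 to 20142975 (pileup 18), 19690878 to 19691192 (pileup 13) and 110151712 to 110151996 (pileup 16). Their strong neighbours were between 16992 and 18364 kb away. Those at 20142674 and 19690878 were each other's nearest site, 451.9 kb apart. With 18 strong sites, chromosome 9 had fewer than any other chromosome but chromosome 10, which had 17.

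Nor was a difference detected in how isolated the sites were. The weak sites' median distance to the nearest site of any class was 261.9 kb (quartiles 89.6 and 563.6 kb), against 246.0 kb for medium sites (quartiles 94.4 and 518.7 kb). The ratio of the per-chromosome medians was 1.03 (95% interval 0.834 to 1.25, exact permutation p = 0.773, adjusted p = 0.973, weak sites farther on 6 of 10 chromosomes). No other site within 1 Mb was found for 53 weak sites (8.83%, Wilson 95% interval 6.82 to 11.4%) and 131 medium sites (8.18%, 6.94 to 9.63%). At the other end, 103 weak sites (17.2%, 14.4 to 20.4%) and 244 medium sites (15.2%, 13.6 to 17.1%) had a neighbour within 50 kb. Weak sites made up 26.7% of the 386 sites with such a neighbour and 24.4% of the 1459 sites in the outer 25% of the span at either end, close to their share of 23.5% in the list.

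The class of the nearest site was much the same for weak and medium sites. It was strong for 79 weak sites (13.2%) and 202 medium sites (12.6%), weak for 146 (24.3%) and 365 (22.8%), and medium for 375 (62.5%) and 1034 (64.6%). Averaged over chromosomes, the nearest site was strong for 13.2% ± 2.70 of weak and 12.3% ± 1.90 of medium sites (SD, n = 10), a difference of 0.950 points (95% interval -1.62 to 3.40, exact p = 0.395, adjusted p = 0.973). It was weak for 24.8% ± 7.60 and 23.3% ± 4.59, a difference of 1.48 points (95% interval -5.37 to 8.32, exact p = 0.613, adjusted p = 0.973). The latter share spread widely, from 12.7% of the weak sites of chromosome 1 to 39.3% on chromosome 9 and 35.3% on chromosome 8. For both measures, weak sites had the higher share on 5 chromosomes and the lower on 5.

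**Figure D3:**
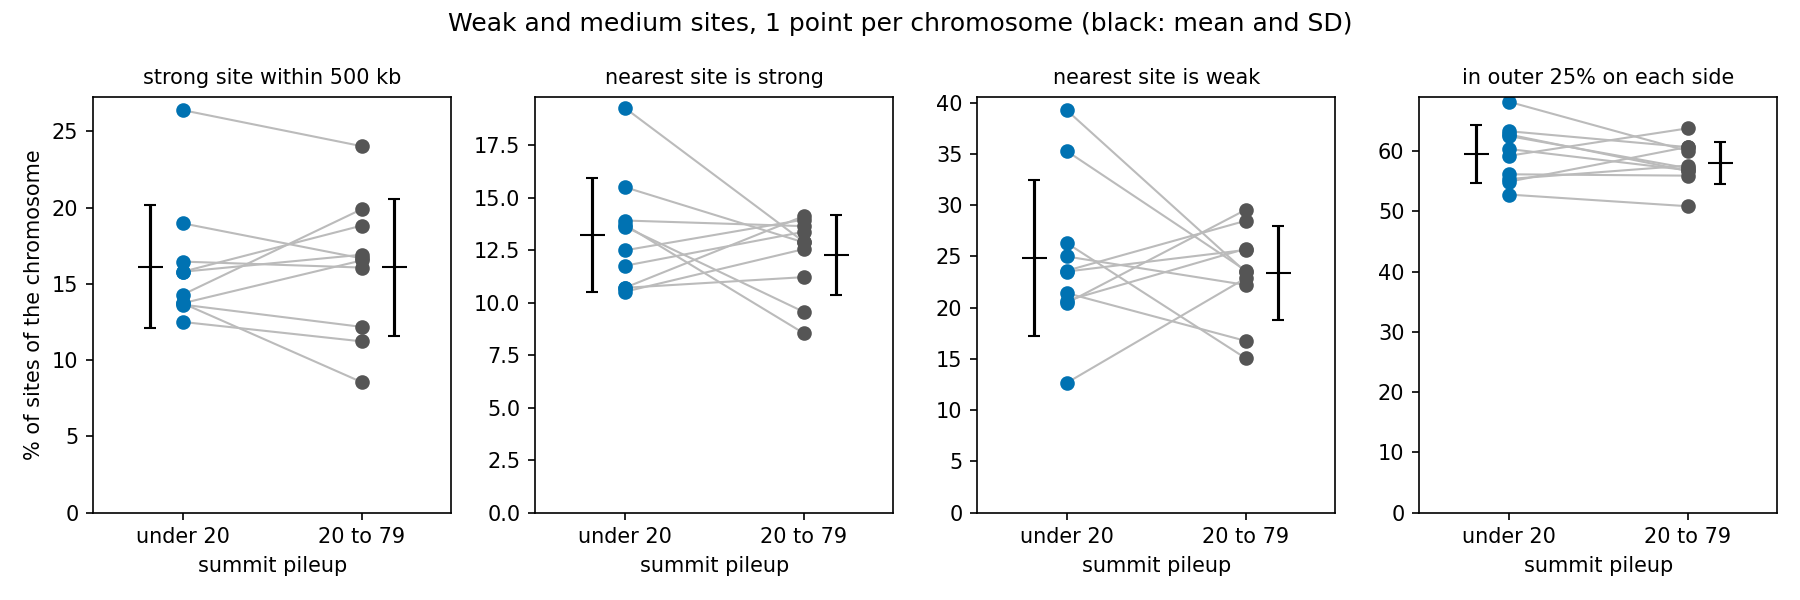
Percentage of a chromosome's weak (pileup under 20) and medium (pileup 20 to 79) sites (y axis) with a strong site within 500 kb, with a strong nearest site, with a weak nearest site, and in the outer 25% at either end of the span. Each line joins the 2 values of 1 chromosome, and black bars give the mean and SD over 10 chromosomes. The lines run in both directions in every panel, and the adjusted p is 0.973 in each.

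The order of sites along the chromosomes gave the same picture. Of the 593 weak sites with a site on either side, 442 (74.5%) had no strong site next to them, 138 (23.3%) had one on 1 side and 13 (2.19%) on both. Of 1592 medium sites the numbers were 1206 (75.8%), 358 (22.5%) and 28 (1.76%). No weak site was next to 352 of the 593 weak sites (59.4%) and 918 of the 1592 medium sites (57.7%), so the classes were close. With the outermost sites counted, 358 of 600 weak sites (59.7%) had no weak neighbour, and 158 came in 79 runs of 2. A further 21 runs had 3 weak sites, 4 had 4 and 1 had 5. The run of 5 was on chromosome 8 from 2065173 to 5534126, with pileups of 14 to 18 over 3469 kb.

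Close neighbours were mostly weak or medium for weak and medium sites alike, and these classes made up 86.1% of all chromosomal peaks. Of the 31 weak sites with the next summit within 10 kb, that summit was medium for 16, weak for 14 and strong for 1. Of the 79 medium sites with a neighbour within 10 kb, 2 had a strong one there. The 14 formed 7 pairs, and 3 of the pairs were on chromosome 9. One of these, at 47393791 to 47394055 and 47394372 to 47394681, had pileups of 14 and 11 at summits 617 bp apart. Another, at 137081175 to 137081540 and 137082220 to 137082485, had pileups of 15 and 10 at 848 bp. A pair on chromosome 10, at 147861212 to 147861545 and 147862377 to 147862652, had pileups of 18 and 17 at 1097 bp. These pairs were picked after their values had been seen. Over all sites, 5.17% of weak and 4.93% of medium sites had a neighbour within 10 kb, and 1.98% of strong sites.

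Toward the chromosome ends, weak sites were listed about as often as medium sites. In the outer 25% of each side lay 356 of 600 weak sites (59.3%, Wilson 95% interval 55.4 to 63.2%) and 931 of 1601 medium sites (58.2%, 55.7 to 60.5%), and here an even spread gives 50%. Averaged over chromosomes the shares were 59.5% ± 4.77 and 58.0% ± 3.51 (SD, n = 10). The difference was 1.54 points (95% interval -1.87 to 4.93, exact permutation p = 0.309, adjusted p = 0.973, weak higher on 7 chromosomes). The outermost 10% on each side held 166 weak sites (27.7%) and 440 medium sites (27.5%). Both classes were sparsest between 30 and 40% of the span from an end, with 85 weak sites (14.2%) and 267 medium sites (16.7%). Between 40 and 50% lay 99 weak sites (16.5%) and 270 medium sites (16.9%).

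In the later list, a larger share of weak than of strong sites lay in the outer 25% on each side. Medium sites (58.2%) were close to weak ones in this, so the position is not particular to weak sites. Only 172 of 354 strong sites (48.6%, Wilson 95% interval 43.4 to 53.8%) were in the outer 25% on each side, a mean of 49.5% ± 8.51 over chromosomes. The weak share was higher by 10.1 points (95% interval 5.19 to 15.3), on 9 chromosomes, and equal on chromosome 6. The exact sign-flip permutation test gave p = 0.00391, or 0.0313 when adjusted together with the 7 tests above. This comparison was chosen with the data already seen, so its p-values are descriptive and no independent test. The gap was widest on chromosome 8, with 62.7% of weak and 37.9% of strong sites, and on chromosome 7, with 60.3% and 42.4%. Leaving out any 1 chromosome left the difference between 8.43 and 11.2 points with an unadjusted p of at most 0.00781. Where chromosome 6, with a difference of 0, was among the 9 chromosomes left, 0.00781 is the smallest p this test can give. Adjusted together with the 7 tests it becomes 0.0625, so these runs could not fall under 0.05 and do not show a weaker difference. Without chromosome 6 a smaller p is possible, and the adjusted p was 0.0313. In the earlier list described next the gap was 10.9 points (95% interval -1.95 to 24.1, exact p = 0.0918, adjusted p = 0.147).

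**Figure D4:**
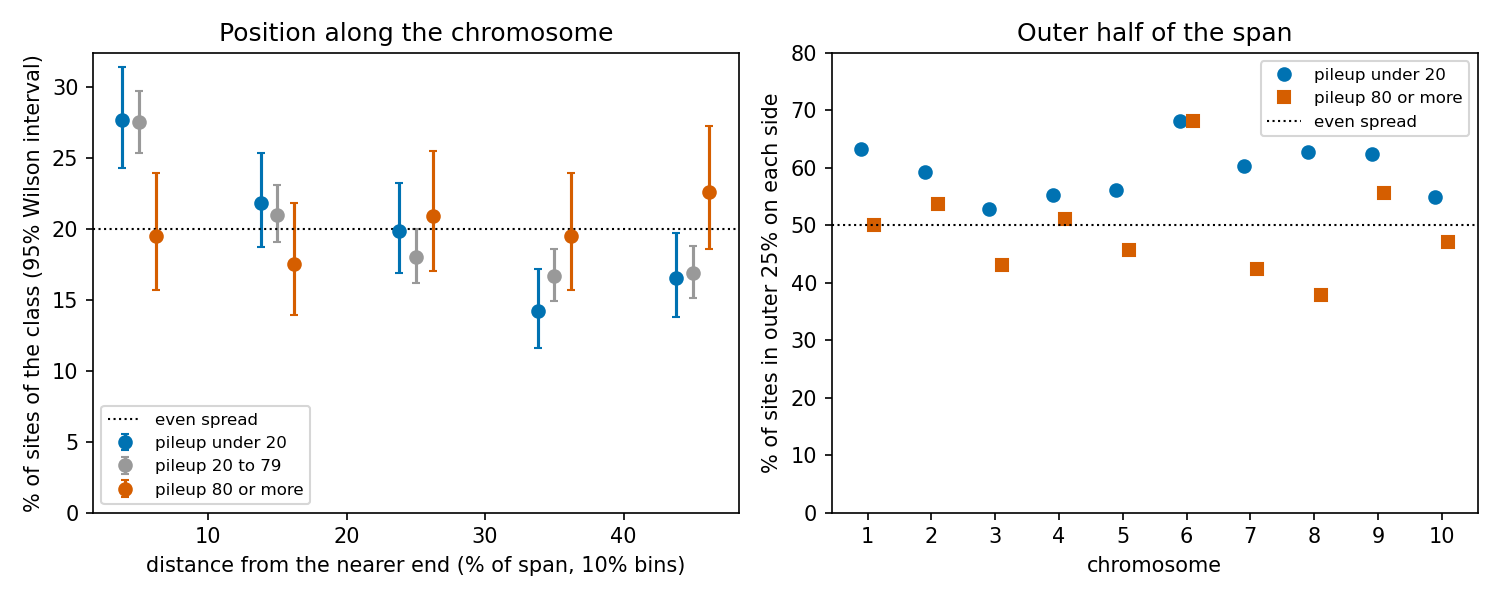
Left, percentage of the sites of each class (y axis, Wilson 95% intervals) in bins of 10% of the span from the nearer chromosome end (x axis), where an even spread gives 20% (dotted). Right, percentage of weak and strong sites in the outer 25% on each side, by chromosome. Weak sites are above strong ones on 9 chromosomes and level with them on chromosome 6, at 68.2%.

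The authors also deposited a list of the same pair of libraries marked release 15 (the earlier list), which held 458 sites of pileup under 20 among 1681 chromosomal peaks (27.2%). Positions differ between the lists, so later sites were placed on the earlier list by the shift of the nearest linked sites on both sides. This placed 276 of the 600 weak sites. The earlier list had a summit within 500 bp for 87 of them (31.5%, Wilson 95% interval 26.3 to 37.2%). It had one for 558 of 846 placed medium sites (66.0%, 62.7 to 69.1%) and for 166 of 191 strong sites (86.9%, 81.4 to 91.0%). The share rose with pileup without a step at 20. It was 24.5% at a pileup of 8 to 13, 27.9% at 14 to 16, 37.8% at 17 to 19, 47.5% at 20 to 22 and 59.8% at 23 to 25.

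Where a weak site was in both lists, its pileup was nearly the same. The median was 17 in the later list and 16 in the other, and the median difference was 0 (quartiles -2 and 1, range -6 to 4). Pileup was higher in the earlier list at 30 of the 87 sites, lower at 37 and equal at 20, and 82 of the 87 were under 20 there too. For strong sites the medians were 105 and 80, with a median difference of -23.5. Weak sites without an earlier partner had a median pileup of 16, a median fold of 5.08 and a median -log10 q of 5.40, against 17, 4.88 and 5.91 for those with one. Both lists come from the same pair of libraries, and only sites that the caller listed in both enter the paired values. These are therefore descriptions of the calls and no replicate check. Read filters are not given, and the caller is named in versions 2.0.10 and 2.1.0. Release, filters and version cannot be told apart in differences between the lists.

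In the other direction, 153 of 225 placed weak sites of the earlier list (68.0%, Wilson 95% interval 61.6 to 73.7%) had a summit in the later one. Of these, 82 were weak there, 68 were medium and 3 were strong, with a highest pileup of 129. For earlier medium sites the share found was 94.7%, 572 of 604. A pileup under 20 in one list therefore did not always mean a pileup under 20 in the other.

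**Figure D5:**
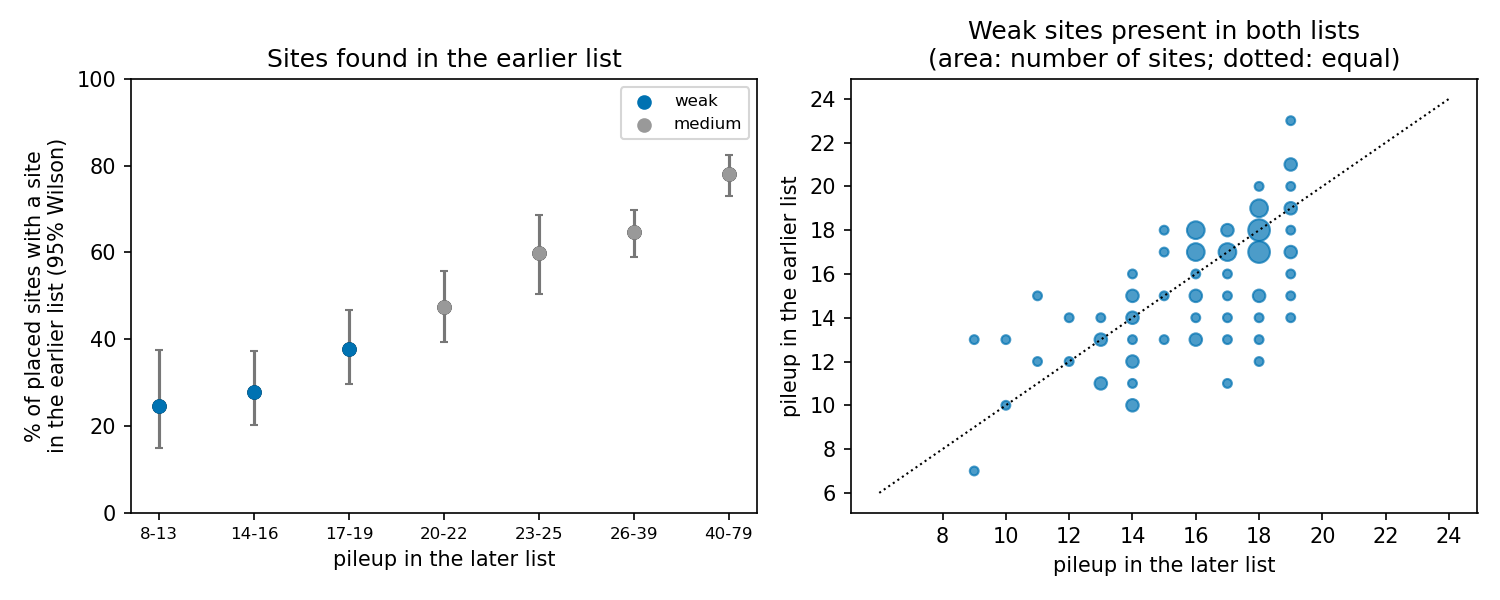
Left, percentage of later sites placed on the earlier list that had a summit there (y axis, Wilson 95% intervals) by pileup in the later list (x axis), rising from 24.5% at a pileup of 8 to 13 to 78.1% at 40 to 79. Right, pileup in the earlier (y axis) and the later list (x axis) of the 87 weak sites found in both, with circle area for the number of sites and the dotted line for equal values.

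Within the earlier list itself, no difference between weak and medium sites passed the adjusted threshold, and the measures did not all point the same way. A strong site within 50 kb was found for 0.878% of weak and 0.542% of medium sites on average over chromosomes (0.336 points, exact p = 0.688, adjusted p = 0.688). The median distance to a strong site was longer for weak sites on 5 chromosomes and shorter on 5 (exact p = 0.338, adjusted p = 0.453). The share with a strong site within 500 kb was lower by 4.11 points (-4.11, 95% interval -7.38 to -0.945, exact p = 0.0137, adjusted p = 0.0684, lower on 9 of 10 chromosomes). The share with a strong nearest site differed by -2.78 points (95% interval -5.19 to -0.388, exact p = 0.0195, adjusted p = 0.0684). The later list gave differences of 0.0407 and 0.950 points for these measures, as stated above. The earlier list had 168 strong sites against 354 in the later one.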

How the data were processed

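The authors deposited peaks of 1 anti-O2 library called against 1 IgG library, on 2 releases. The submitters' processing notes name Bowtie2 and MACS2 in versions 2.0.10 and 2.1.0. Build, read filters and threshold: not given in the sources used here. Per the file headers, pileup is a signal of overlapping fragments in whole numbers and fold enrichment is a ratio to the caller's background. Significance was deposited by the authors as -log10 p and -log10 q from the caller. In the later list the headers of these columns are overwritten, and -log10 q was identified by equality with the score of the deposited summit list, at all 2567 summits. Depth is unknown.

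Background was computed as (pileup + 1) / fold - 1. Distances are between summits on the same chromosome. Position is relative to the stretch between the outermost summits of a chromosome. Weak and medium sites were compared per chromosome with the two-sided exact sign-flip test over 1024 sign patterns. Its smallest p is 0.00195 where no chromosome has a difference of 0, and larger otherwise. Inversion of the test gives the 95% intervals. The procedure was tested on simulated data with sites scattered evenly along each chromosome, unlike the real list. The weak sites planted there beside strong ones were a far larger share than was observed. Whether differences as small as the observed ones could be detected was not tested. Sites were linked between lists by at least 3 neighbour spacings shared within 500 bp over 5 Mb (1096 links, and 0 when chromosomes were paired wrongly). A site was placed where the links on both sides had the same shift within 1000 bp. Named sites are the 5 weak sites with the lowest pileup, the highest fold, the shortest and the longest distance to a strong site, with ties in pileup taken by lower -log10 q and further ties in chromosome order. Members, classes and tests were chosen with earlier results of these data known. The linking and the comparison with strong sites were added after the data had been seen. Python 3.11.15, numpy 2.4.6, pandas 2.3.3, scipy 1.17.1 and matplotlib 3.10.9 were used.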

Additional observations from a re-analysis of the deposited data

Results flagged for a closer look

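Outside chromosomes 1 to 10, the later list held 1 site of pileup under 20. It lay on an unplaced scaffold, at 168 to 477, with a pileup of 13 over a background of 1.35 and a fold of 5.96, and was picked out because the comparisons do not use unplaced sequence.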

How the results depend on the processing

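No analysis paired by sample was possible because each antibody has 1 library. Of 151 tested alternatives to the 7 comparisons of weak with medium sites, 0 passed an adjusted p of 0.05 by the sign-flip test and 2 had an unadjusted p under 0.05, both in the earlier list. In 36 of them the sign was opposite to that of the main difference, and the cause was not tested. Both alternatives with an unadjusted p under 0.05 were among these, and their intervals left out 0. The share with a strong site within 500 kb was lower for weak sites there (-4.11 points, interval -7.38 to -0.945). So was the share with a strong nearest site (-2.78 points, interval -5.19 to -0.388). The log10 distance to the nearest strong site (main difference -0.00447) differed by 0.0246 against medium sites of pileup 40 to 79, 0.00568 with strong sites from 100, 0.0111 with background under 10, 0.0399 in the earlier list, 0.00709 in the inner span and 0.000793 for means. The log10 distance to any site (main 0.0115) differed by -0.00439 with background under 10 and -0.0428 in the inner span. The share with a strong site within 50 kb differed by -0.0629 points for pileup under 18, -0.289 with classes by fold and -0.433 in the inner span. Within 500 kb it differed by -1.53 for pileup under 18, -0.0146 with strong sites from 60, -0.471 with strong sites from 100, -0.767 with -log10 q from 5, -4.11 in the earlier list, -0.296 in the outer span and -1.81 at 1000 kb. The share with a strong nearest site differed by -0.0179 with strong sites from 100, -2.16 with classes by fold, -0.0665 with -log10 q from 5 and -2.78 in the earlier list. The share with a weak nearest site differed by -0.547 for pileup under 18 and -3.69 in the inner span, and the outer share by -0.461 with weak sites under 25. Leaving out each chromosome in turn gave -0.0157 to 0.0136 for distance to a strong site, -0.00361 to 0.0398 for distance to any site, 0.0557 to 0.828 points within 50 kb, -0.530 to 0.669 within 500 kb, 0.345 to 1.44 for a strong and -0.113 to 2.78 for a weak nearest site, and 0.797 to 2.35 for the outer share.

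The excess of weak over strong sites in the outer span was 10.9 points in the earlier list (adjusted p = 0.147) and 7.46 for the outer 10% on each side (adjusted p = 0.375), by the same exact permutation test, and 8.43 to 11.2 without 1 chromosome. It was 10.1 and 10.8 with strong sites from 60 and from 100 (exact permutation test, adjusted p = 0.0313 and 0.0469). Weak sites numbered 354 with -log10 q from 5, a minimum that fewer pass. The share found in the earlier list was 25.4% when the summit had to lie within 100 bp and 30.3 to 33.3% in the 3 other settings, all chosen after the data had been seen. No value has a replicate, and depth is unknown.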

Other observations

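Of the 3 longest weak sites, 2 were lower summits in an interval shared with a medium site. The 3 were picked after their values had been seen. The longest, 816 bp on chromosome 5 at 172858457 to 172859272, is an interval that the list gives with 2 summits 336 bp apart, of pileup 14 and 29. The next, 782 bp on chromosome 9 at 138489066 to 138489847, also has 2 summits, 430 bp apart, of pileup 14 and 57. The list holds 3 such intervals with 6 summits in all, 2 of them weak, and the length of these 2 is that of the shared interval. The third longest, 613 bp on chromosome 6, is the weak site 12638 bp from a strong peak described above.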
